A study of Mus musculus with 419 samples.

Results

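A set of 10 genes stands for the production of steroid hormones in adrenal gland, ovary and testis: the receptor genes Mc2r and Lhcgr, the cholesterol carrier gene Star, and the enzyme genes Cyp11a1, Cyp17a1, Cyp21a1, Cyp11b1, Cyp11b2, Hsd17b3 and Cyp19a1. They were taken by symbol from the deposited count table, where all 10 were found among 55487 genes. The series holds 419 bulk poly(A) libraries, covering 19 tissues, all of the mouse strain CBA/CaJ. Energy-deficient mice (Deficient) were set against energy-sufficient mice (Control), in females and in males, at ZT05 and ZT17 (5 and 17 h after lights on). Each group of tissue, sex, treatment and time held 3 libraries, except the tibialis anterior tendon of Control males at ZT05, which held 2. A treatment arm of 1 sex in 1 tissue therefore held 6 libraries over both times. The labels used here give neither the age of the mice nor how energy deficiency was brought about, and both arms share the strain. The females gave both adrenal gland and ovary (12 of 12 animals shared), whereas the males that gave adrenal glands were not those that gave testes (0 shared). Adrenal libraries of females and males therefore differ in the set of animals as well as in sex, and these cannot be told apart.

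Steroid hormones are made from cholesterol. A pituitary hormone binds its receptor on the steroid-making cell (ACTH binds MC2R in adrenal cortex, luteinizing hormone binds LHCGR in theca, luteal and Leydig cells) and raises cyclic AMP, STAR then moves cholesterol to the inner mitochondrial membrane, and CYP11A1 cuts its side chain to give pregnenolone. In the adrenal cortex, CYP21A1 (21-hydroxylase) and CYP11B1 (11β-hydroxylase) lead to corticosterone, the main glucocorticoid of mice, and CYP11B2 (aldosterone synthase) makes aldosterone in the zona glomerulosa. In the gonads CYP17A1 makes androgens, HSD17B3 reduces androstenedione to testosterone in the testis, and CYP19A1 (aromatase) turns androgens into oestrogens.

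RefSeq promoter windows (GRCm38.p6) were given for 4 of the 10 genes, Cyp11a1, Lhcgr, Hsd17b3 and Cyp19a1, with 7 windows in all. The 3 shown each cover the 250 bases before a RefSeq start, 5′ to 3′ on the gene's strand, because these genes carry the entry step of the pathway, its gonadal receptor and its testicular last step. The motifs searched on both strands were AAGGTCA, the half-site of the steroidogenic factor NR5A1, and TGACG, the half-site of the cyclic AMP response element. Capitals mark the only match in the 7 windows, CGTCA, which is TGACG read on the other strand, 50 bases before the start. That RefSeq start of Cyp11a1 lies upstream of the GENCODE gene start given with its levels.
Cyp11a1 (chr9:57997774-57998023, + strand): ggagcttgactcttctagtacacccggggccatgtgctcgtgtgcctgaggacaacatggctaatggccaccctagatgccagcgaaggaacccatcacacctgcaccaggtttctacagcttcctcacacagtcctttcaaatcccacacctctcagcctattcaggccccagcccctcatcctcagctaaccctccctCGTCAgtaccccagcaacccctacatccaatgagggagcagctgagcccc
Lhcgr (chr17:88792015-88792264, − strand): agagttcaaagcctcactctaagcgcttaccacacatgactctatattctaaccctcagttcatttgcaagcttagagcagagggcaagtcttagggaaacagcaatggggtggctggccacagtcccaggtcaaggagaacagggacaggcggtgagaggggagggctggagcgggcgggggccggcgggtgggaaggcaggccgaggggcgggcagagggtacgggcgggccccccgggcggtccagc
Hsd17b3 (chr13:64089202-64089451, − strand): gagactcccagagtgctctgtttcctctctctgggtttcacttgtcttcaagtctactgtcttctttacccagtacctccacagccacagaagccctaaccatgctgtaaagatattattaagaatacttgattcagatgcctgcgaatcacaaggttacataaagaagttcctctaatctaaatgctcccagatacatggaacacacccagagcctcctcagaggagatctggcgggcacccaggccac
Of 32851 RefSeq promoter windows of 250 bases, 4.1% held AAGGTCA and 17.8% held TGACG. The other windows of Cyp11a1 and Cyp19a1 held neither.

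Levels are CPM, gene counts scaled to a common library total after TMM normalization, as mean ± SD over the 12 libraries of a tissue and sex, with both treatments and times together. Library totals ran from 11535317 to 53598697 counts in adrenal gland, from 13674988 to 22675172 in ovary and from 14554241 to 32441565 in testis. Star (chr8:25806555-25815982, + strand, GRCm38) stood at 14230 ± 3059 CPM in female adrenal gland and 15623 ± 4154 CPM in male adrenal gland. Ovary followed at 419 ± 766 CPM, then testis at 46.5 ± 19.0 CPM and spleen at 22.6 ± 7.5 CPM in females and 23.4 ± 14.7 CPM in males. The 2 adrenal means lay within their spread, as did ovary, testis and spleen among themselves, since ovary ran from 8.37 to 2159 CPM. Cyp11a1 (chr9:58006411-58027023, + strand) averaged 8338 ± 1377 CPM in female and 9887 ± 1872 CPM in male adrenal gland, and 56.1 ± 24.9 CPM in testis. In ovary Cyp11a1 ran from 0.09 to 6098 CPM with a median of 0.999 CPM, so that its mean describes no single library.

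RNA of the late adrenal enzymes and of the ACTH receptor was found mainly in adrenal gland. Cyp21a1 (chr17:34801348-34804561, − strand) averaged 15232 ± 2690 CPM in female and 8761 ± 1237 CPM in male adrenal gland, and came next in uterus at 59.1 ± 71.3 CPM and testis at 6.61 ± 1.46 CPM. Cyp11b1 (chr15:74834125-74841643, − strand) averaged 13378 ± 2764 CPM in female and 10105 ± 2042 CPM in male adrenal gland, and no other tissue's mean passed the 2.41 CPM of female kidney. That kidney mean rested mainly on Deficient ZT05 replicate 1, with 26.8 CPM, which carried other adrenal transcripts as well. The neighbour of Cyp11b1, Cyp11b2 (chr15:74851010-74856318, − strand), averaged 320 ± 203 CPM in female and 326 ± 91.1 CPM in male adrenal gland. Elsewhere Cyp11b2 reached at most 0.291 CPM in a single library. Mc2r (chr18:68406907-68429320, − strand) averaged 560 ± 120 CPM in female and 417 ± 85.6 CPM in male adrenal gland, against 1.85 CPM in the next tissue, female brown adipose tissue. Cyp11b1 and Cyp11b2 share sequence: 19.1% of the 50-base stretches in Cyp11b2 exons also occur in Cyp11b1. Likewise 21.3% of those of Cyp21a1 occur in the pseudogene Cyp21a2-ps, so how reads were divided between these pairs is uncertain.

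For 4 genes the highest mean was in a gonad. Cyp17a1 (chr19:46667165-46673172, − strand) averaged 240 ± 95.2 CPM in testis, followed by ovary at 30.9 CPM (0 to 331 CPM), female liver at 12.7 ± 10.1 CPM and male adrenal gland at 3.11 ± 1.16 CPM. Hsd17b3 (chr13:64058266-64089230, − strand) averaged 19.3 ± 4.29 CPM in testis, 2.80 ± 1.25 CPM in female and 2.83 ± 3.87 CPM in male adrenal gland. Its mean in any other tissue and sex was at most 0.136 CPM. Lhcgr (chr17:88716481-88791990, − strand) averaged 32.0 ± 64.6 CPM in ovary, where its median was 0.104 CPM, 8.41 ± 2.49 CPM in testis, and 3.94 ± 5.66 CPM in female and 1.08 ± 0.423 CPM in male adrenal gland. Cyp19a1 (chr9:54165937-54268110, − strand) averaged 6.33 ± 1.06 CPM in testis and 4.37 CPM (0 to 42.2 CPM) in ovary, and the 24 adrenal libraries held 1 count of it. Cyp11b1 and Cyp11b2 had 0 counts in all 12 testis libraries, which allows up to 0.206 CPM in the shallowest of them for counting error alone.

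**Figure D1:**
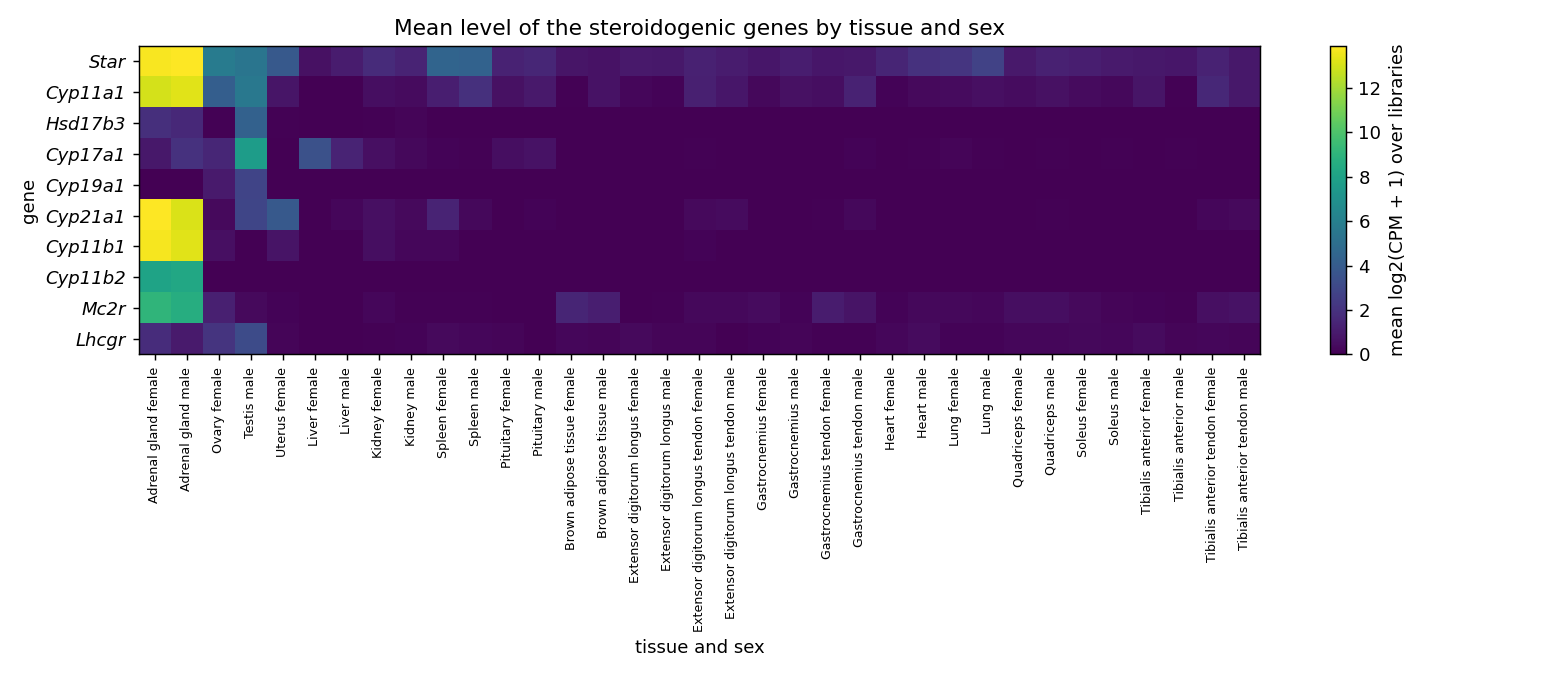
Mean log2(CPM + 1) of the 10 genes (rows) in the 35 combinations of tissue and sex (columns), colour from low to high. Star, Cyp11a1, Cyp21a1, Cyp11b1, Cyp11b2 and Mc2r peak in the adrenal columns, whereas Cyp17a1, Hsd17b3, Cyp19a1 and, on this log scale, Lhcgr peak in testis; the mean CPM of Lhcgr is higher in ovary, where few libraries carry it.

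Per kilobase of exon, adrenal glands held most Cyp21a1 RNA of the 10 genes, at 7118 CPM per kb in females and 4094 CPM per kb in males. In females Cyp11b1 (4227 CPM per kb), Star (3460) and Cyp11a1 (1736) followed, with Mc2r at 344 and Cyp11b2 at 197 CPM per kb. In males Star came at 3798, Cyp11b1 at 3193, Cyp11a1 at 2058, Mc2r at 256 and Cyp11b2 at 201 CPM per kb. In testis Cyp17a1 led with 86.6 CPM per kb, followed by Hsd17b3 (13.9), Cyp11a1 (11.7) and Star (11.3), whereas Cyp21a1, Cyp19a1 and Lhcgr held 3.09, 1.40 and 1.10 CPM per kb.

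The labelled adrenal glands carried cortical and medullary markers in every library, and 6 zona glomerulosa, 5 zona fasciculata and 6 medulla genes were detected throughout. In 2 libraries kidney markers were also high: the summed CPM of 6 kidney epithelial genes was 804 in Deficient female ZT17 replicate 1 and 208 in Control male ZT05 replicate 2, against at most 19.4 in the others. Without these 2 libraries the same 2 of the 10 genes were called in females and 0 in males. The 6 adipocyte genes listed summed to 1067 to 1921 CPM in adrenal glands of Deficient males and 125 to 520 CPM in those of Control males, and to 1564 to 2724 CPM in Deficient and 1542 to 4807 CPM in Control females. Their part in the adrenal results was not tested. In bulk tissue, fewer cells of a type and less RNA per cell cannot be told apart.

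The first comparison asked whether energy deficiency changed these genes in the adrenal gland. In females, Mc2r, the receptor for ACTH, was higher in Deficient mice and Lhcgr was lower, and the other 7 genes tested, Star and the enzyme genes, were not called. Cyp19a1 had too few counts to be tested. Deficient female glands held 498 to 708 CPM of Mc2r (median 686 CPM), against 386 to 521 CPM (median 467 CPM) in Control glands. The arms overlapped over both times. At each time all 3 Deficient glands lay above all 3 Control glands, but how many of all genes do so was not counted. The log2 difference, Deficient minus Control, was 0.50 ± 0.09 (SE), with an edgeR adjusted p of 0.00325. It was 0.48 at ZT05 (adjusted p = 0.0546, beside 2.91% of genes called) and 0.52 at ZT17 (adjusted p = 0.0413, beside 2.74%). With females fitted alone it was as large, 0.51 ± 0.12, with an adjusted p of 0.0517. In that comparison 5.42% of 17572 genes were called, so the 2 genes called of 9 tested stand against that share. The median log2 difference of the 9 genes was 0.06, beside 0.0038 over all genes tested.

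Lhcgr, the receptor for luteinizing hormone, held 0.349 to 1.94 CPM in Deficient female adrenal glands (median 1.21 CPM) and 1.29 to 16.4 CPM in Control female glands (median 2.89 CPM). Its log2 difference was -2.12 ± 0.50 (edgeR adjusted p = 0.0165). The difference rested on 2 libraries, Control ZT05 replicates 1 and 2 with 16.4 and 15.4 CPM, while the other 4 Control glands reached at most 4.1 CPM. The same 2 glands had 21.0 and 22.6 CPM of Gata4, a transcription factor gene of gonadal somatic cells, against 5.16 to 9.995 CPM in the other female glands. Why these 2 glands stood apart was not tested. Without both, the difference was -0.58 (adjusted p = 0.447), and Cyp17a1 was called instead, at 2.62 (adjusted p = 0.0103). Without Control ZT17 replicate 3 alone, Lhcgr stood at -1.79 (adjusted p = 0.0672).

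Star and the enzymes of corticosterone synthesis differed by less than their spread in females. Star averaged 13548 ± 3317 CPM in Deficient and 14912 ± 2909 CPM in Control glands (SD, n = 6 each), a log2 difference of -0.13 ± 0.15 (edgeR adjusted p = 0.628). Cyp11a1 averaged 8549 ± 1665 CPM in Deficient and 8128 ± 1136 CPM in Control glands, a log2 difference of 0.06 ± 0.11 (edgeR adjusted p = 0.772). Cyp21a1 averaged 15924 ± 2323 CPM in Deficient and 14540 ± 3062 CPM in Control glands (log2 difference 0.14 ± 0.12), and Cyp11b1 14062 ± 2954 CPM in Deficient and 12695 ± 2638 CPM in Control glands (0.15 ± 0.15). Neither was called, with edgeR adjusted p of 0.499 and 0.573. Cyp11b2, whose product makes aldosterone, held 85.8 to 345 CPM in Deficient glands (median 215 CPM) and 90.7 to 814 CPM in Control glands (median 408 CPM). Its log2 difference of -0.88 ± 0.35 had an edgeR adjusted p of 0.147. It was called without Control ZT05 replicate 1 (-1.08, adjusted p = 0.0284) or without Deficient ZT17 replicate 2 (-1.27, adjusted p = 0.0162). Cyp17a1 (0.74 ± 0.46) and Hsd17b3 (-0.69 ± 0.42) were low in all female glands and were not called (adjusted p = 0.369 and 0.362).

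In males 0 of 9 genes tested were called by edgeR, beside 1.13% of 17572 genes, while 3 had an unadjusted p under 0.05 and DESeq2 called 2, Mc2r and Hsd17b3. Mc2r held 402 to 542 CPM in Deficient male glands (median 454 CPM) and 264 to 461 CPM in Control male glands (median 382 CPM). Its log2 difference was 0.35 ± 0.09 (edgeR adjusted p = 0.0893). Cyp11b1, the last enzyme before corticosterone, held 10049 to 13445 CPM in Deficient glands (median 11397 CPM) and 7159 to 9861 CPM in Control glands (median 8806 CPM). All 6 Deficient glands lay above all 6 Control glands, which was so for 0.791% of genes, and the log2 difference of 0.45 ± 0.15 had an edgeR adjusted p of 0.198. Hsd17b3 held 0.698 to 1.72 CPM in Deficient glands (median 1.29 CPM) and 1.10 to 14.7 CPM in Control glands (median 2.63 CPM), a log2 difference of -1.51 ± 0.44 (adjusted p = 0.121). Control ZT17 replicate 2 held the 14.7 CPM.

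The other 6 genes had an unadjusted p of 0.05 or more in males. Star averaged 16293 ± 5241 CPM in Deficient and 14953 ± 3068 CPM in Control glands (log2 difference 0.08). Cyp11a1 averaged 9310 ± 750 CPM in Deficient and 10464 ± 2520 CPM in Control glands (-0.14), and Cyp21a1 8887 ± 605 CPM in Deficient and 8635 ± 1721 CPM in Control glands (0.05). Cyp11b2 averaged 277 ± 74.0 CPM in Deficient and 375 ± 84.3 CPM in Control glands, a log2 difference of -0.42 ± 0.35 (edgeR adjusted p = 0.804). Lhcgr (0.16) and Cyp17a1 (-0.43) were not called either. The female response minus the male response was called by edgeR for 0 of the 9 genes (1 at unadjusted p under 0.05), beside 1.78% of all genes, while DESeq2 called Lhcgr. Without female Control ZT05 replicates 1 and 2, edgeR called Cyp17a1. For Mc2r it was 0.16 ± 0.13 (edgeR adjusted p = 0.742).

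**Figure D2:**
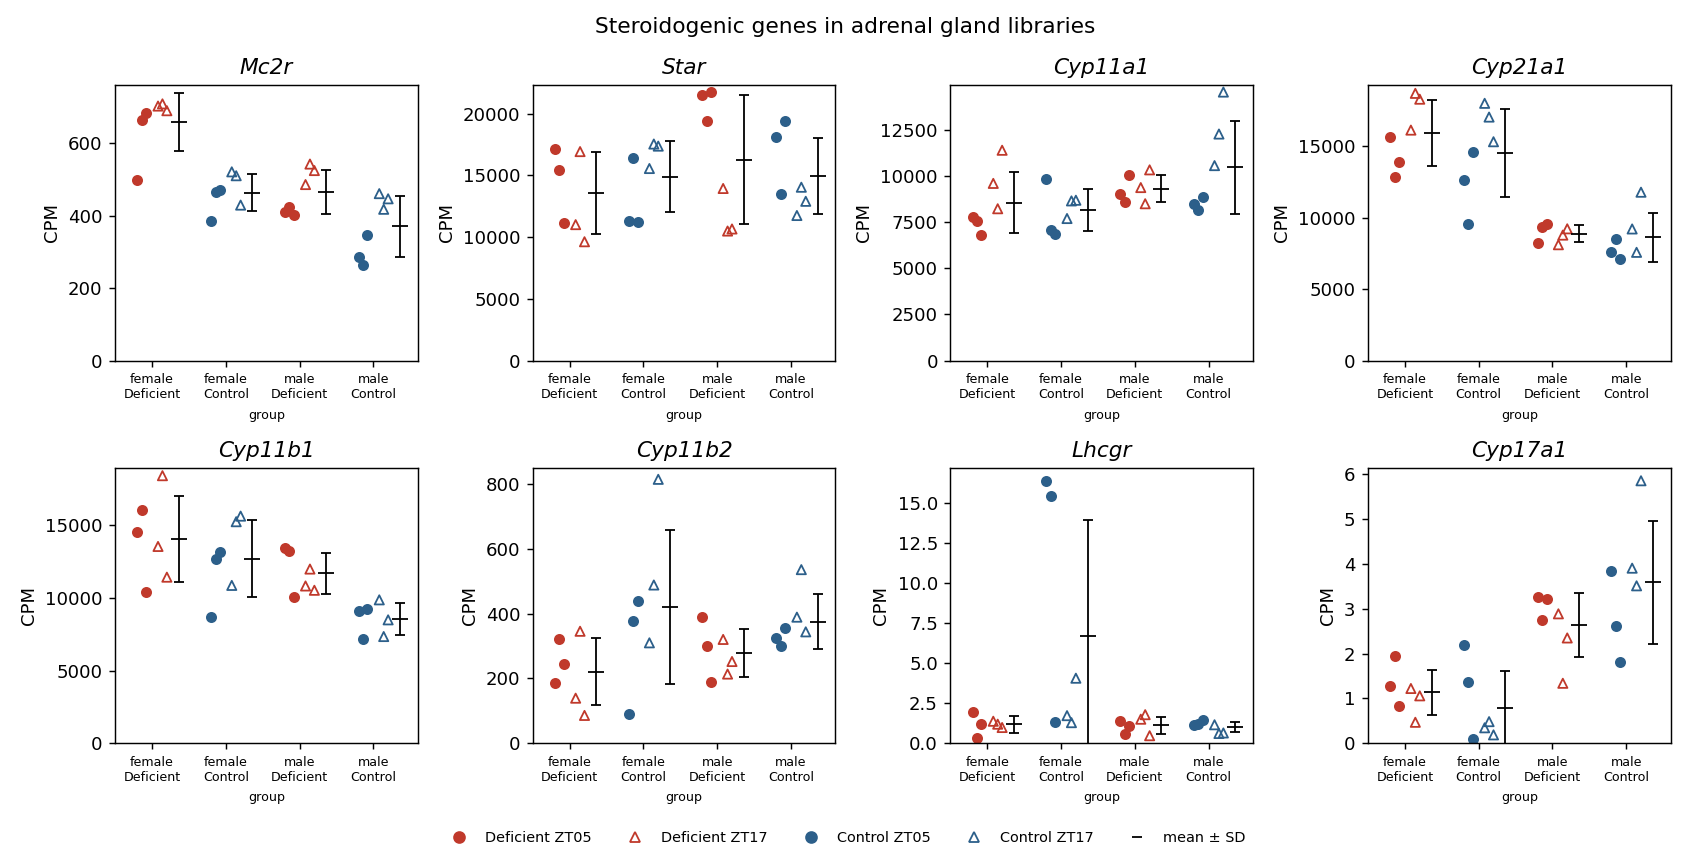
Level (CPM) of 8 genes in each adrenal library, with groups from left to right female Deficient, female Control, male Deficient and male Control; filled circles are ZT05, open triangles ZT17, and bars give the mean ± SD of 6 libraries. Mc2r averages 657 CPM in female Deficient and 463 CPM in female Control glands, Cyp11b1 shows no overlap between the male arms, and 2 female Control glands hold the high Lhcgr values.

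Between the collection times, ZT17 minus ZT05 in Control glands, edgeR called 0 of the 9 genes tested in either sex, beside 2.24% of genes in females and 0.233% in males. At unadjusted p under 0.05 there were 3 in each sex, and DESeq2 called Lhcgr in females and Cyp11a1 and Mc2r in males. Lhcgr had the lowest adjusted p in Control females, 0.0925, at -2.23, while Control males had Mc2r at 0.56 ± 0.13 (adjusted p = 0.0888) and Cyp11a1 at 0.55 ± 0.16 (adjusted p = 0.182). Star in Deficient males held 10499 to 13945 CPM at ZT17 and 19389 to 21729 CPM at ZT05. These groups of 3 did not overlap, but how many of all genes do so was not counted. The log2 difference of -0.84 ± 0.21 had an edgeR adjusted p of 0.167, in a comparison with 0.0626% of genes called. Scarb1, the receptor that takes up cholesterol from lipoproteins, was higher at ZT17 in Control glands of both sexes, by 1.91 ± 0.20 in females (edgeR adjusted p = 4.41e-05) and 0.998 ± 0.20 in males (adjusted p = 0.0298). Mrap, the accessory protein that brings MC2R to the cell surface, was higher at ZT17 in Control males by 1.65 ± 0.29 (adjusted p = 0.0110). The response at ZT17 minus that at ZT05 was called for 0 of the 9 genes, beside 0.0171% of genes in females and 0 genes in males, with 1 gene of the 9 at unadjusted p under 0.05 in each sex.

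Control glands of the sexes differed in 6 of 9 genes, in a comparison in which 31.8% of all genes were called and in which sex and the set of animals cannot be told apart. Female minus male, Cyp21a1 was higher by 0.74 ± 0.12 (edgeR adjusted p = 6.28e-05), Cyp11b1 by 0.57 ± 0.15 (adjusted p = 0.0072) and Mc2r by 0.35 ± 0.09 (adjusted p = 0.00763). Control glands held 9595 to 18005 CPM of Cyp21a1 in females and 7121 to 11786 CPM in males, which overlap. Lhcgr was higher in females by 2.33 ± 0.50 (adjusted p = 0.00138), and without the 2 glands named above the other 5 genes were called and Lhcgr was not. Cyp17a1 was lower in females by -2.41 ± 0.45 (adjusted p = 0.000344), at 0.0893 to 2.20 CPM in females and 1.82 to 5.85 CPM in males. Cyp11a1 was lower in females by -0.34 ± 0.11 (adjusted p = 0.0245). Star at 0.00, Cyp11b2 at 0.12 and Hsd17b3 at -0.06 were not called. Adipocyte markers moved with this comparison as given above, and their part in it was not tested. Among other genes of the pathway, Nr5a1, the transcription factor that turns on many steroidogenic genes, was higher in females by 1.29 ± 0.13 (adjusted p = 4.46e-07). Hsd3b6, a 3β-hydroxysteroid dehydrogenase of the zona glomerulosa, was lower in females by -3.00 ± 0.18 (adjusted p = 2.59e-10).

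Other genes of the pathway came from 5 lists. Of 12 genes of cholesterol supply, 4 fell and 0 rose in Deficient female adrenal glands, with a median log2 difference of -0.31, beside 5.42% of all genes called and a median of 0.0038. Among them were Hmgcs1 (-1.14 ± 0.24, edgeR adjusted p = 0.00824) and Sqle (-0.83, adjusted p = 0.0171), which are enzymes of cholesterol synthesis, and Stard4 (-0.73, adjusted p = 0.00846), a cytosolic cholesterol carrier. Hmgcs1 ran from 111 to 320 CPM in Deficient and from 176 to 623 CPM in Control female glands, with overlap. Of 10 other steroid enzyme genes 1 fell, Hsd17b7 (-0.66, adjusted p = 0.0160), which also acts in cholesterol synthesis. Of 10 steroidogenic regulators Nr4a3 rose (1.09 ± 0.17, adjusted p = 0.000570) and Gata4 fell (-0.87, adjusted p = 0.0415), its Control values including the 2 glands rich in Lhcgr. Nr4a3, an immediate early gene of the nuclear receptor family, ran from 45.1 to 212 CPM in Deficient and from 36.1 to 51.5 CPM in Control female glands. No gene was called by edgeR among 9 receptor and cyclic AMP genes (0 at unadjusted p under 0.05) and 5 cofactors (3 at unadjusted p under 0.05). Fdx1, the ferredoxin that passes electrons to CYP11A1, stood at 0.60 ± 0.19 (adjusted p = 0.0697) and Nr5a1 at 0.14 (adjusted p = 0.546).

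In male adrenal glands, where 1.13% of all genes were called, 1 of the 12 cholesterol supply genes rose and 0 fell (median 0.18). It was Lipe (0.85, edgeR adjusted p = 0.0455), a hormone-sensitive lipase that is also an adipocyte gene and moved with the adipocyte markers given above. Of 10 other steroid enzymes 1 rose and 1 fell. Hsd11b1, which regenerates active glucocorticoid, rose by 0.66 ± 0.13 (adjusted p = 0.0110), with 50.7 to 91.0 CPM in Deficient and 36.6 to 62.0 CPM in Control glands. Hsd3b6 fell by 1.22 on the log2 scale (SE 0.17, edgeR adjusted p = 0.000698). It held 346 to 987 CPM in Deficient and 1237 to 1818 CPM in Control glands. The arms did not overlap, with Deficient lower, which was so for 0.933% of genes. The 6 zona glomerulosa markers, which include Hsd3b6, summed to 1085 to 1781 CPM in Deficient and 2018 to 2505 CPM in Control male glands, but the other 5 alone to 684 to 898 CPM in Deficient and 632 to 913 CPM in Control male glands. Of those 5, Shh fell (-0.92, adjusted p = 0.0178). No gene was called among 10 regulators, 9 receptor and cyclic AMP genes and 5 cofactors, with 2, 3 and 0 of them at unadjusted p under 0.05 and medians of 0.32, 0.22 and 0.15 beside -0.0060 over all genes. Hsd3b1, the main 3β-hydroxysteroid dehydrogenase of mouse adrenal gland, stood at 0.40 ± 0.11 (adjusted p = 0.0734) and Nr5a1 at 0.46 ± 0.13 (adjusted p = 0.106).

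The ovary libraries stood apart from each other before any comparison. All 8 oocyte markers reached 1 CPM in 3 libraries: Deficient ZT05 replicate 3, where they summed to 224 CPM, and Control ZT05 replicates 2 and 3, where they summed to 643 and 134 CPM. In the other 9 libraries they summed to 0.814 to 13.1 CPM, the most being in Control ZT17 replicate 1. Luteal markers summed to 5022 CPM in the Deficient and 5317 and 7362 CPM in the Control libraries with oocyte markers, and to 96.1 to 194 CPM in the others. Granulosa markers summed to 512 CPM in the Deficient and 3185 and 689 CPM in the Control libraries with oocyte markers, to 404 CPM in Control ZT17 replicate 1, and to 46.2 to 126 CPM in the other 8. Oviduct and ciliated cell markers summed to 1411 to 18743 CPM in all 12.

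Star, Cyp11a1 and Lhcgr were all high in the 3 libraries with oocyte markers. In Control ZT17 replicate 1 Cyp11a1 and Lhcgr were high as well, while Star held only 42.4 CPM. Star held 943 CPM in Deficient ZT05 replicate 3 and 9.09 to 40.3 CPM in the other 5 Deficient libraries, against 2159 and 1733 CPM in Control ZT05 replicates 2 and 3 and 8.37 to 42.4 CPM in the other 4 Control libraries. Cyp11a1 held 2617 CPM in that Deficient library and at most 2.1 CPM in the other Deficient libraries, against 3844, 6098 and 376 CPM in Control ZT05 replicates 2 and 3 and ZT17 replicate 1 and at most 0.246 CPM in the other Control libraries. Lhcgr held 20.2 CPM in that Deficient library, against 120, 205 and 38.8 CPM in the same 3 Control libraries, and at most 0.4 CPM in the rest of both arms. Cyp17a1, the androgen enzyme of theca cells, reached 35.1 CPM in that Deficient library and 331 CPM in Control ZT05 replicate 2. Cyp19a1, the aromatase of granulosa cells, reached 1.46 CPM among Deficient and 42.2 CPM among Control libraries, the highest again in ZT05 replicate 2. Cyp11b2 had 0 counts in all 12, which allows up to 0.219 CPM in the shallowest library.

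Of the 10 genes 6 could be tested in ovary and 0 were called, beside 10.4% of 18637 genes. At unadjusted p under 0.05 there were 2, Lhcgr and Cyp19a1, and DESeq2 called Lhcgr. Deficient minus Control, the log2 differences were -7.43 ± 2.97 for Lhcgr (edgeR adjusted p = 0.138), -5.78 ± 2.29 for Cyp19a1 (adjusted p = 0.135), -4.68 ± 2.44 for Cyp11a1 (adjusted p = 0.224), -2.82 ± 2.45 for Cyp17a1 (adjusted p = 0.458), -1.47 ± 1.03 for Star (adjusted p = 0.356) and -0.57 ± 0.70 for Mc2r (adjusted p = 0.605). All 6 were negative with all libraries in, with a median of -3.75 beside -0.0254 over all genes, and the 8 oocyte, 7 granulosa and 5 luteal markers were negative as well, with medians of -2.31, -2.71 and -1.39 and 0 called by edgeR (4, all granulosa markers, at unadjusted p under 0.05). Their part in the result was not tested. Without Control ZT05 replicate 2, Cyp17a1 turned to 0.12, and without Control ZT17 replicate 1, Cyp11a1 turned to 0.43. Without Control ZT05 replicate 1, Cyp19a1 was called at -6.05 (adjusted p = 0.0438). In the 3 libraries with oocyte markers alone, 1 Deficient and 2 Control, Lhcgr stood at -2.94, Star at -0.98 and Cyp11a1 at -0.86, values with no spread for the Deficient side and no test. Deficient ovarian tissue with oocyte markers was thus represented by 1 library.

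**Figure D3:**
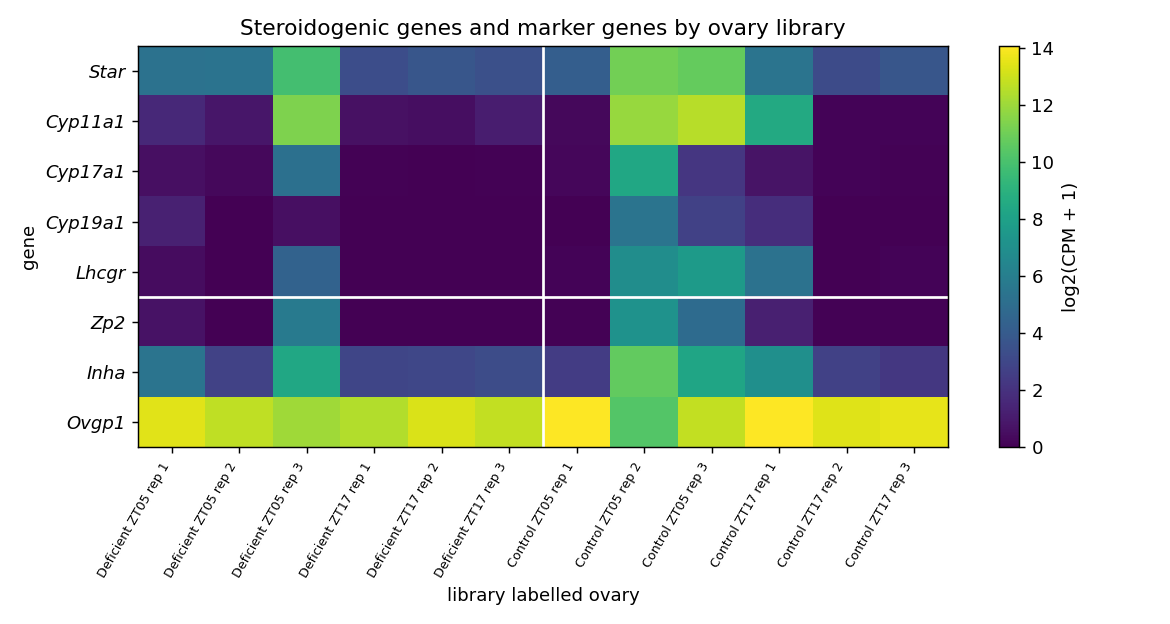
Log2(CPM + 1) of 5 steroid genes (above the white line) and of the oocyte gene Zp2, the granulosa gene Inha and the oviduct gene Ovgp1 (below it) in each ovary library, with 6 Deficient libraries left and 6 Control libraries right. The libraries rich in Star and Cyp11a1 are those that hold Zp2, and Ovgp1 is present in all 12.

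Of the listed pathway genes in ovary, Hsd11b2 (-3.02, edgeR adjusted p = 0.0359) and Mrap (-2.77, adjusted p = 0.0411) fell, and the phosphodiesterase genes Pde4d (0.9996, adjusted p = 0.0109) and Pde8b (0.69, adjusted p = 0.0306), which break down cyclic AMP, rose. That was 1 of 9 other enzymes and 3 of 8 receptor and cyclic AMP genes, with 0 of 5 cofactors and 0 of 10 regulators by edgeR (1 and 3 at unadjusted p under 0.05), beside 10.4% of all genes called. The cholesterol supply list is not described for ovary. The part of the tissue makeup in these was not tested.

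In testis the receptor, the carrier and the first 2 enzymes were lower in most Deficient libraries, but 0 of 7 genes tested were called, beside 0.0288% of 20816 genes. At unadjusted p under 0.05 there were 4 of the 7. The share of all genes at that unadjusted threshold is not given here. DESeq2 called 0 of the 7. Cyp17a1 held 22.7 to 225 CPM in Deficient testes (median 202 CPM) and 286 to 373 CPM in Control testes (median 305 CPM). All 6 Deficient testes lay below all 6 Control testes, which was so for 0.423% of genes, and the log2 difference was -0.92 ± 0.32 (edgeR adjusted p = 0.262). Cyp11a1 held 3.20 to 67.5 CPM in Deficient testes (median 38.6 CPM) and 70.7 to 81.5 CPM in Control testes (median 73.7 CPM), without overlap, with a log2 difference of -1.03 ± 0.36 (adjusted p = 0.262). Star held 7.31 to 59.8 CPM in Deficient testes (median 33.0 CPM) and 51.1 to 69.95 CPM in Control testes (median 58.3 CPM), a log2 difference of -0.95 ± 0.23 (adjusted p = 0.144). Lhcgr averaged 7.06 ± 2.61 CPM in Deficient and 9.75 ± 1.57 CPM in Control testes, a log2 difference of -0.48 ± 0.21 (adjusted p = 0.355).

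The later enzymes differed less. Hsd17b3, which makes testosterone, averaged 18.5 ± 4.91 CPM in Deficient and 20.2 ± 3.81 CPM in Control testes, a log2 difference of -0.15 ± 0.15 (edgeR adjusted p = 0.727). Cyp19a1 stood at 0.10 ± 0.13 (adjusted p = 0.801) and Cyp21a1 at -0.24 ± 0.15 (adjusted p = 0.513). Deficient ZT17 replicate 1 was the lowest library for Star, Cyp11a1, Cyp17a1, Lhcgr, Hsd17b3 and Cyp21a1. There 5 Leydig cell markers other than the 10 genes summed to 217 CPM, against 372 to 487 CPM in the other Deficient and 294 to 362 CPM in the Control testes. Without it Cyp17a1 was called at -0.65 (adjusted p = 0.0449). Without any filter on low counts, 4 genes were called, Star at -0.94 ± 0.08, Cyp11a1 at -1.02 ± 0.08, Cyp17a1 at -0.91 ± 0.07 and Lhcgr at -0.47 ± 0.11, with 358 of 37718 genes called in all. The libraries were the same and the differences nearly so, while the SEs were smaller than with the filter. These calls therefore depend on the filter and add no support for a difference. At ZT17 alone Star stood at -1.37 ± 0.33 (edgeR adjusted p = 0.128), and between the times 0 of the 7 genes were called in either arm, with 1 of them, Star in Deficient testes, at unadjusted p under 0.05.

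**Figure D4:**
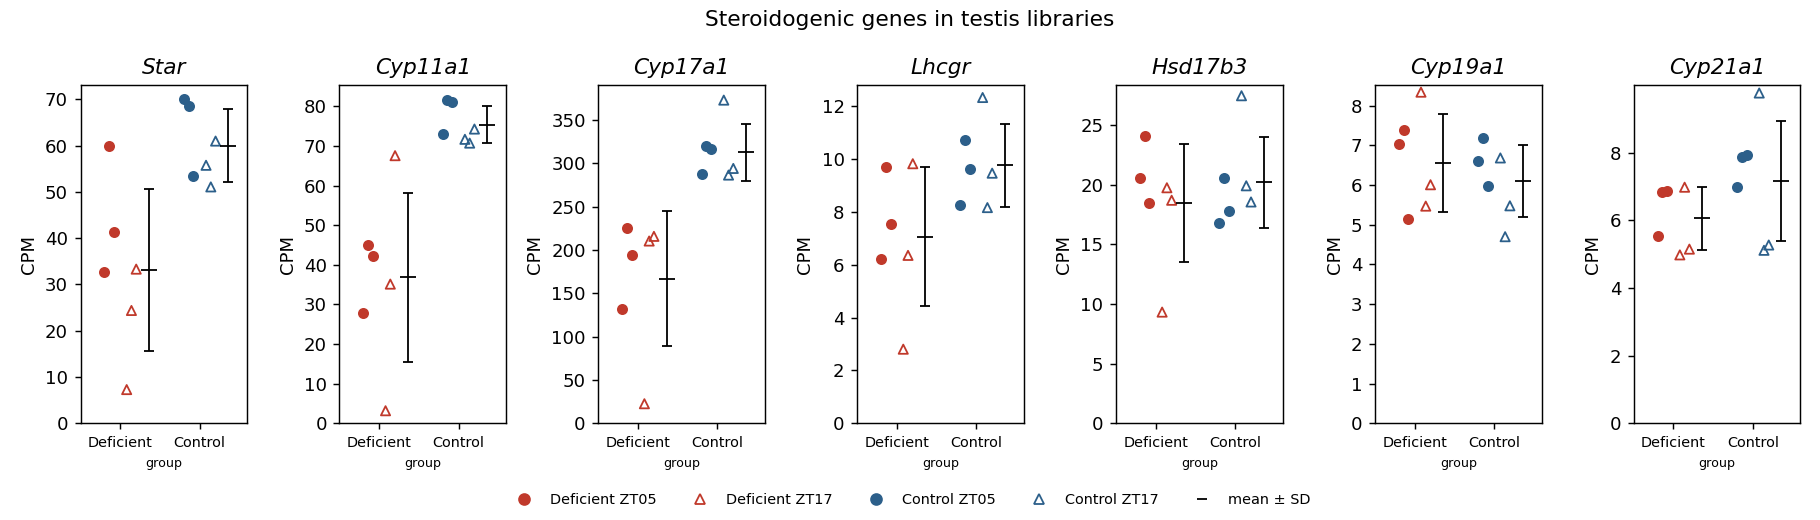
Level (CPM) of 7 genes in each testis library, Deficient left and Control right; filled circles are ZT05, open triangles ZT17, and bars give the mean ± SD of 6 libraries. Cyp11a1 and Cyp17a1 show no overlap between the arms, Hsd17b3 overlaps widely, and 1 Deficient ZT17 testis is lowest in 6 of the panels.

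No gene of the 5 pathway lists was called in testis, beside 0.0288% of all genes. The lists gave 12 genes of cholesterol supply, 5 other enzymes, 10 receptor and cyclic AMP genes, 5 cofactors and 9 regulators. At unadjusted p under 0.05 there were 2, 1, 2, 1 and 3 of them in that order. Hsd3b1 stood at 0.66 ± 0.12 (edgeR adjusted p = 0.0696), with 16.8 to 27.5 CPM in Deficient and 11.4 to 20.0 CPM in Control testes, a difference opposite in sign to those of Star, Cyp11a1 and Cyp17a1. Nr5a1 stood at 0.16 and Scarb1 at -0.16 (adjusted p = 0.297). The 5 Leydig markers, among which Hsd3b1 and Hsd3b6 are also listed enzymes, had a median of 0.54, and 2 of them had an unadjusted p under 0.05, whereas the median over all genes was -0.0094. Insl3, another of the 5, held only 0.0517 to 0.970 CPM. On the same strand 64.8% of its exon bases overlap the gene Jak3, so how its reads were counted is uncertain.

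Outside adrenal gland and gonads, 9 of 88 tests of the 10 genes were called between Deficient and Control mice, beside 8.91% of all gene and tissue pairs there, a share near that of the 10 genes. In uterus, where 45% of genes were called, Cyp21a1 was lower in Deficient mice. It held 18.4 CPM in Deficient ZT05 replicate 1 and 0.116 to 0.647 CPM in the other 5 Deficient uteri, against 52.7 to 225 CPM in Control uteri. The arms did not overlap, but how many of all genes do so in uterus was not counted. The log2 difference was -6.04 ± 0.88 (edgeR adjusted p = 0.000433). The pseudogene Cyp21a2-ps fell as well (-6.71 ± 0.71, adjusted p = 0.000261), at 0 to 0.278 CPM in Deficient and 1.32 to 8.04 CPM in Control uteri. The complement gene C4b fell by 1.16 on the log2 scale (SE 0.17, adjusted p = 0.000493), whereas C4a stood at 0.27 ± 0.32 (adjusted p = 0.521). Cyp11b1 stood at -2.03 ± 0.76 (adjusted p = 0.0466) with at most 3.19 CPM in any uterus, and its call was lost in 9 of 12 fits that left out 1 library.

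Cyp17a1 was higher in liver of Deficient mice in both sexes. Deficient female livers held 5.3 to 39.7 CPM and Control female livers 2.0 to 11.3 CPM, a log2 difference of 1.41 ± 0.29 (edgeR adjusted p = 0.00272, beside 4.93% of genes called). Deficient male livers held 0.998 to 9.01 CPM and Control male livers 0 to 0.995 CPM, a difference of 3.65 ± 0.91 (adjusted p = 0.0122, beside 8.52% of genes). The male value rested on 135 counts in all 12 libraries, whose mitochondrial and rRNA-like genes took 79.2 to 95.3% of counts, and without Deficient ZT17 replicate 1 the adjusted p was 0.0606. Control livers of females stood above those of males by 4.05 ± 0.79 (edgeR adjusted p = 7.26e-05, beside 60.1% of genes). Mitochondrial and rRNA-like genes took 5.39 to 6.61% of counts in female livers, so sex and this makeup of the libraries cannot be told apart. In kidney Cyp17a1 held 0.377 to 1.23 CPM in Deficient and 0.144 to 0.264 CPM in Control females, a difference of 1.98 ± 0.36 (adjusted p = 0.00131, beside 9.43% of genes). In male kidney it was 1.66 ± 0.60 (adjusted p = 0.0312, beside 40.8% of genes), lost in 4 fits that left out 1 library. Without Deficient ZT17 replicate 2, which held the highest male level (0.658 CPM), it was 1.12 (adjusted p = 0.195). That kidney library also carried adrenal transcripts, with 3.29 CPM of Cyp11b1. Adrenal glands of Deficient males averaged 11674 CPM of Cyp11b1 and 2.63 CPM of Cyp17a1. The part of adrenal transcripts in the Cyp17a1 level of that kidney was not tested.

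**Figure D5:**
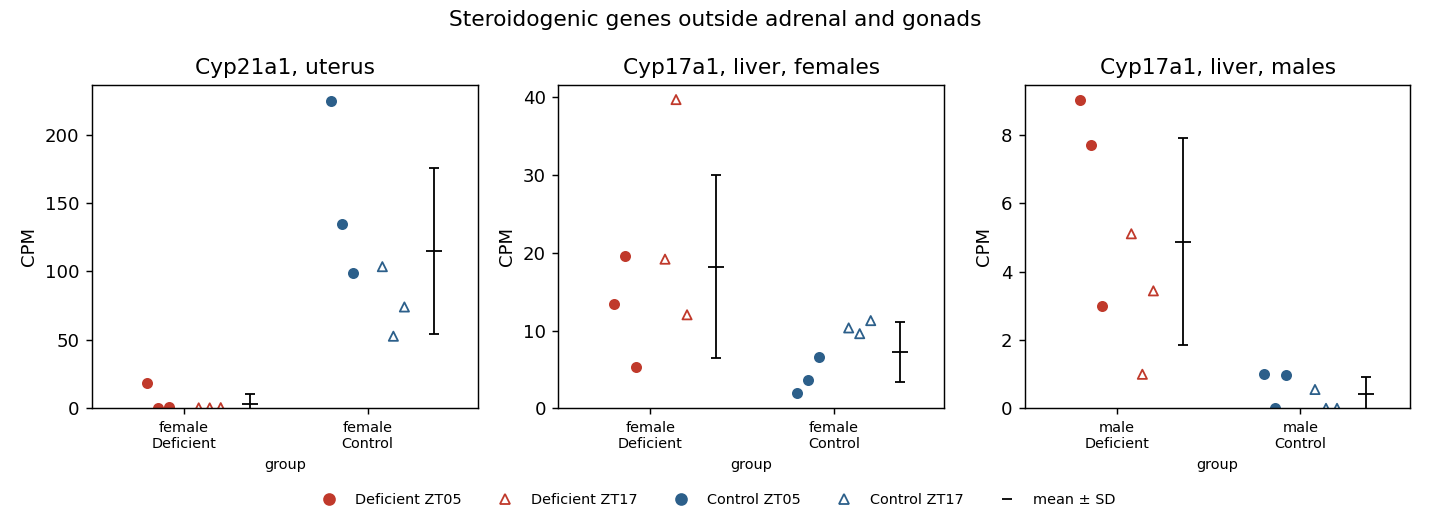
Level (CPM) of Cyp21a1 in uterus and of Cyp17a1 in liver of females and of males, Deficient left and Control right in each panel; filled circles are ZT05, open triangles ZT17, and bars give the mean ± SD of 6 libraries. Cyp21a1 lies lower in all Deficient uteri, and Cyp17a1 lies higher in Deficient livers, with overlap in females.

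Star was called in 2 muscles of females. It held 0.872 to 1.43 CPM in Deficient and 0.546 to 0.931 CPM in Control extensor digitorum longus (0.60 ± 0.18, edgeR adjusted p = 0.0122, beside 31.9% of genes). In soleus it held 1.28 to 2.12 CPM in Deficient and 0.851 to 1.18 CPM in Control females (0.65 ± 0.15, adjusted p = 0.0054, beside 21.6% of genes). Cyp11a1 was lower in pituitary of Deficient females, at 0.123 to 0.307 CPM against 0.528 to 3.02 CPM in Control females (-2.23 ± 0.50, adjusted p = 0.0244, beside 1.93% of genes), a call lost in 6 fits that left out 1 library. In spleen of Control males Star held 8.8 to 16.1 CPM at ZT17 and 25.1 to 59.1 CPM at ZT05, a log2 difference of -1.60 ± 0.32 (adjusted p = 0.0287, beside 1.75% of genes). The ZT05 spleen with 34.3 CPM came from the set of males that gave adrenal glands and the other 5 did not, and mitochondrial and rRNA-like genes took 2.79 to 79.1% of counts in male spleens; their part was not tested. The pituitary genes upstream of the 10 were not called in either sex: of Pomc, Cga, Fshb, Gnrhr and Crhr1, the lowest adjusted p was 0.102, for Gnrhr in females at -1.24 ± 0.38. Lhb was listed at 0 in every pituitary library. On the opposite strand 20.4% of its exon bases overlap the gene Ruvbl2. How its reads were counted is uncertain, so these 0 counts do not show that its RNA was absent.

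Adrenal transcripts stood out in 3 kidney libraries, most in 1. Deficient female ZT05 replicate 1 held 30.5 CPM of Star, 27.1 CPM of Cyp21a1, 26.8 CPM of Cyp11b1 and 12.6 CPM of Cyp11a1, whereas the other Deficient female kidneys held at most 3.03 CPM of Star and 0.119 CPM of each of the others. Deficient male ZT17 replicate 2 held 2.51 CPM of Cyp21a1 and 3.29 CPM of Cyp11b1, and Control female ZT17 replicate 1 held 2.40 and 2.08 CPM of them, against at most 0.434 CPM of Cyp21a1 and 0.277 CPM of Cyp11b1 in the remaining kidneys. In spleen, Deficient female ZT17 replicate 1 held 6.64 CPM of Cyp21a1 and 5.85 CPM of Cyp11b1, and Cyp11b1 was at 0 in every other spleen. In kidney, Cyp21a1 (-7.56), Cyp11a1 (-6.78) and Star (-2.77) were called between ZT17 and ZT05 of Deficient females, beside 3.27% of genes. That fit included kidney Deficient female ZT05 replicate 1. Without that kidney library 0 of the 10 genes were called between these times. Cyp17a1 kept its call between Deficient and Control in female kidney at 1.75 ± 0.38 (edgeR adjusted p = 0.00546).

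The genes most like 5 of the 10 across the 35 combinations of tissue and sex were found by Pearson correlation of mean log2(CPM + 1) over 19741 genes that reached 5 CPM in at least 1 combination. Tissues share animals, so these values describe likeness and carry no test. Star was most like Akr1cl (r = 0.9632), Hsd3b1 (0.9519) and Lbx2 (0.9419), and Akr1cl averaged 2958 CPM in female and 1759 CPM in male adrenal gland and 540 CPM in ovary. Cyp11b1 was most like Cyp21a2-ps (0.9977), Hand1 (0.9948) and Gm28382 (0.9936). Cyp17a1 was most like the meiosis gene Meiob (0.9564), and Hsd17b3 was most like 2200002J24Rik (0.9887), Fam186b (0.9844) and Txndc2 (0.9843). Cyp19a1 was most like Gm7347 (0.9999), E330034G19Rik (0.9996) and Muc3 (0.9992), all above 5 CPM in testis and near 0 in most tissues.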

How the data were processed

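Libraries were made with the TruSeq Stranded mRNA kit from 500 ng of TRIzol-extracted RNA, per the labels' protocols. For 419 libraries the authors deposited raw gene counts, and the submitters' processing notes name FastQC 0.11.9, cutadapt 4.1, STAR 2.7.10a, DESeq2 1.34.0 and GRCm38 (mm10). The counting tool and annotation are not given in the sources used here. Library totals ran from 5777450 to 53598697 counts. Limits from 0 counts take 3 counts of a library's total as the floor and cover counting error only. Nothing says that replicates are separate cages or litters, so p-values measure the spread between these animals' libraries. Tissues of 1 animal are not independent.

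An edgeR 4.0.16 model (R 4.3.3) was fitted per tissue: expression filter (minimum count 10, total 15), TMM scaling, a coefficient for every sex, treatment and time group, quasi-likelihood tests and Benjamini-Hochberg adjustment over all genes tested in the tissue, called under 0.05. Responses are Deficient minus Control averaged over both times. Counts at unadjusted p under 0.05 are given without the share of all genes at that threshold. They are therefore not read as results, and shares of genes called refer to adjusted p. DESeq2 1.42.0, other filters and scalings, a replicate block and libraries left out were alternatives. Replicate numbers did not pair libraries (mean correlation of same-numbered residuals 0.054 in adrenal gland, -0.022 in ovary and 0.061 in testis). Scripts were tested on simulated data. Gene positions are those of GENCODE release M21. The named genes are the 10, the called genes of the pathway lists, and 6 listed genes (Scarb1, Hsd3b1, Hsd3b6, Fdx1, Nr5a1, Mrap) whatever their call. Some genes that this rule selects are not reported here. The 10 genes, the lists and the marker sets were chosen with earlier results of these data known.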

Additional observations from a re-analysis of the deposited data

Results flagged for a closer look

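Several responses of adrenal pathway genes differed between the sexes by the test of the female minus the male response (edgeR, adjusted over 17572 genes, of which 1.78% were called). They were 4 of 12 genes of cholesterol supply and 4 of 10 other steroid enzymes, with 0 of 10 regulators, 0 of 9 receptor and cyclic AMP genes and 0 of 5 cofactors (3, 0 and 2 at unadjusted p under 0.05). Among them, the cholesterol synthesis genes Hmgcs1 (-1.62 ± 0.34, adjusted p = 0.0162), Sqle (-1.36 ± 0.28, adjusted p = 0.0146) and Hsd17b7 (-1.25 ± 0.22, adjusted p = 0.00557) had a lower response in females. So had Lipe (-1.25 ± 0.29, adjusted p = 0.0282), the glucocorticoid-regenerating enzyme gene Hsd11b1 (-1.08 ± 0.18, adjusted p = 0.00376) and the 5α-reductase gene Srd5a1 (-0.89 ± 0.21, adjusted p = 0.0322). Hsd3b6 differed the other way (1.10 ± 0.24, adjusted p = 0.0205). Sex and the set of animals cannot be told apart in these libraries, and adipocyte markers differed between Deficient and Control males, whose part was not tested.

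In female kidney, the response of Cyp21a1 at ZT17 minus that at ZT05 was -13.36 ± 3.26 (edgeR adjusted p = 0.0483). It rested on Deficient ZT05 replicate 1, with 27.1 CPM, and without that library it stood at -2.71 ± 30.9 (adjusted p = 0.983). How adrenal transcripts came into that library was not tested.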

How the results depend on the processing

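The fits changed with the choice of tool, filter and library more in their counts than in their directions. In adrenal gland of females (2 of the 10 genes and 952 genes in all), a stricter filter gave 1 (Mc2r) and 634, females alone 0 and 326, DESeq2 1503 genes, leaving out the 2 libraries with kidney markers 573 genes, and leaving out Control ZT05 replicates 1 and 2 together 414 genes. Leaving out 1 library gave 1 to 3 of the 10 and 471 (without Control ZT17 replicate 3) to 2939 genes (without Deficient ZT17 replicate 2). In males (0 and 199), DESeq2 gave 2 and 497, males alone 327 genes, and single libraries left out 0 to 1 and 99 to 246. Between times in Control glands, DESeq2 called 1 of the 10 in females (Lhcgr) and 2 in males (Cyp11a1 and Mc2r), males alone 1 (Mc2r), and single libraries left out gave 0 to 2 in females. The female minus male response had 1 of the 10 with DESeq2 (Lhcgr), 1 without both Control libraries (Cyp17a1), and 0 to 1 with single libraries left out. The sexes of Control mice differed in 5 to 6 with single libraries left out. In ovary (0 and 1942), no filter gave 1216 genes, DESeq2 1 and 3710, the 3 libraries with oocyte markers 0 genes (1 Deficient library, so this says nothing of stability), and single libraries left out 0 to 1 and 349 to 4770. There DESeq2 called 1 gene between responses by time (Lhcgr) and 1 between times (Star), and single libraries left out gave 0 to 2 between times. In testis (0 and 6), no filter gave 4 and 358 and 1 between responses by time (Star), a stricter filter 0 genes, DESeq2 161, and single libraries left out 0 to 1 and 4 to 51. Directions that turned round did so only when 1 library was left out: adrenal Cyp21a1 (-0.0203 to 0.14) and Lhcgr (-0.00096 to 0.353) in males, ovarian Cyp17a1 (-5.31 to 0.115) and Cyp11a1 (-9.26 to 0.431), and testicular Hsd17b3 (-0.226 to 0.00519). The cause of these changes was not tested. With the replicate number as a block, the counts were 2 and 946 in female and 0 and 200 in male adrenal gland, 0 and 1419 in ovary, and 0 and 4 in testis, and the block changed no call of the 10 genes there. In the other tissues the block and each sex alone gave 9 calls and DESeq2 gave 10. Depth limits Cyp17a1 in male liver and the genes near 1 CPM outside their main tissues.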
